A study of Homo sapiens with 9 samples.

Results

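The transcriptome of VCaP cells 4 days after transfection with the second of 2 siRNAs against KMT2C, called siRNA 2 here, was compared with that of cells given a control siRNA. VCaP is an established human prostate cancer line that responds to androgen and carries the TMPRSS2-ERG gene fusion. All cells were grown in DMEM with fetal bovine serum, and total RNA was taken with Trizol for Illumina sequencing. The control cells are labelled KMT2C normal, and 3 libraries were made from each group. The 6 libraries were chosen by their labels alone out of 9 in the series, which also holds 3 libraries with another siRNA against KMT2C (siRNA 1). Of 60612 genes in the table, the 12830 that reached an FPKM (fragments per kilobase of transcript and per unit of sequencing depth) of 1 or more in 3 or more libraries were tested. The model is a single cell line, the knockdown is transient, and whether replicates were separate cultures is not given in the sources used here, so p-values measure only the spread between these samples.

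KMT2C, also known as MLL3, is a large enzyme that places methyl groups on lysine 4 of histone H3 (H3K4), mainly the single methyl mark found at enhancers. It works in a complex with shared subunits such as WDR5, RBBP5, ASH2L and DPY30 and with the partners NCOA6, PAGR1, PAXIP1 and KDM6A. In prostate epithelium, enhancers are bound by factors such as FOXA1, HOXB13 and GATA2, and they drive secretory genes such as KLK3, which encodes prostate specific antigen. An siRNA directs cleavage of the RNA it matches and can also lower other RNAs with a partial match, which was not tested here.

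The control libraries held 58462215 to 70726213 counts and the siRNA 2 libraries 64732518 to 67398141, with close to 4 counts for 1 sequenced fragment. Mitochondrial genes took 10.21% to 11.15% of the counts in control libraries and 11.95% to 12.18% with siRNA 2, ranges that did not overlap. The luminal markers EPCAM, KRT8 and KRT18 were present in every library, while the basal marker KRT5 was listed at 0 in all of these 6. Photoreceptor markers are given because the series' design text speaks of retinal RNA: RCVRN was listed at 0 throughout, OPN1SW was listed at 0 in control libraries and reached 0.118 FPKM with siRNA 2, and PDE6B had 0.0684 to 0.114 FPKM in control libraries and 0.580 to 0.708 with siRNA 2, under the level needed for a test. Of 32 markers of other cell types, 15 stayed below 0.1 FPKM in every control and siRNA 2 library. The summed level of all 32 was 10.91 to 13.89 FPKM in control libraries and 15.5 to 21.91 with siRNA 2. The fibroblast marker LUM had 1.44, 1.27 and 1.02 FPKM in control libraries and 10.2, 7.04 and 12 with siRNA 2, while the fibroblast markers COL1A1, COL1A2 and DCN stayed below 1 FPKM. TTR, a liver and choroid plexus marker, fell from 3.32 to 0.423 FPKM. The part of these markers in the results was not tested. In bulk RNA, fewer cells that express a gene and less RNA per cell cannot be told apart.

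KMT2C itself fell. This gene (ENSG00000055609, GRCh38 chromosome 7, 152134922 to 152436003, minus strand) stood at 13.7, 12.1 and 12.9 FPKM in the control libraries and at 1.72, 1.64 and 1.73 with siRNA 2. The groups did not overlap, and 12.66% of the control level was left. The log2 fold change was -2.98 ± 0.13 (adjusted p = 8.76e-07 by the quasi-likelihood F test of edgeR after Benjamini-Hochberg correction, the test behind every call below). An exact 2-sided permutation test over the 6 libraries gave p = 0.1, the smallest that 3 against 3 allows. With siRNA 1 the level was 1.54, 1.8 and 2.28 FPKM.

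Of the 12830 genes tested, 6328 (49.3%) were called between siRNA 2 and control at an adjusted p of 0.05. Of all genes tested, 3128 (24.4%) were higher with siRNA 2 and 3200 (24.9%) were lower, and the median log2 fold change over all of them was 0.02. Counts for gene groups below are to be read against these shares. The FPKM values of the control and siRNA 2 groups did not overlap for 8060 of the 12830 genes. Most calls were small. A log2 change of at least 1, or 2-fold, was reached by 758 genes upward and 1076 downward, and one of at least 3, or 8-fold, by 47 upward and 130 downward. With upper quartile scaling in place of edgeR's TMM scaling, the median moved to 0.12 and the calls became 3900 higher and 2665 lower.

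**Figure D1:**
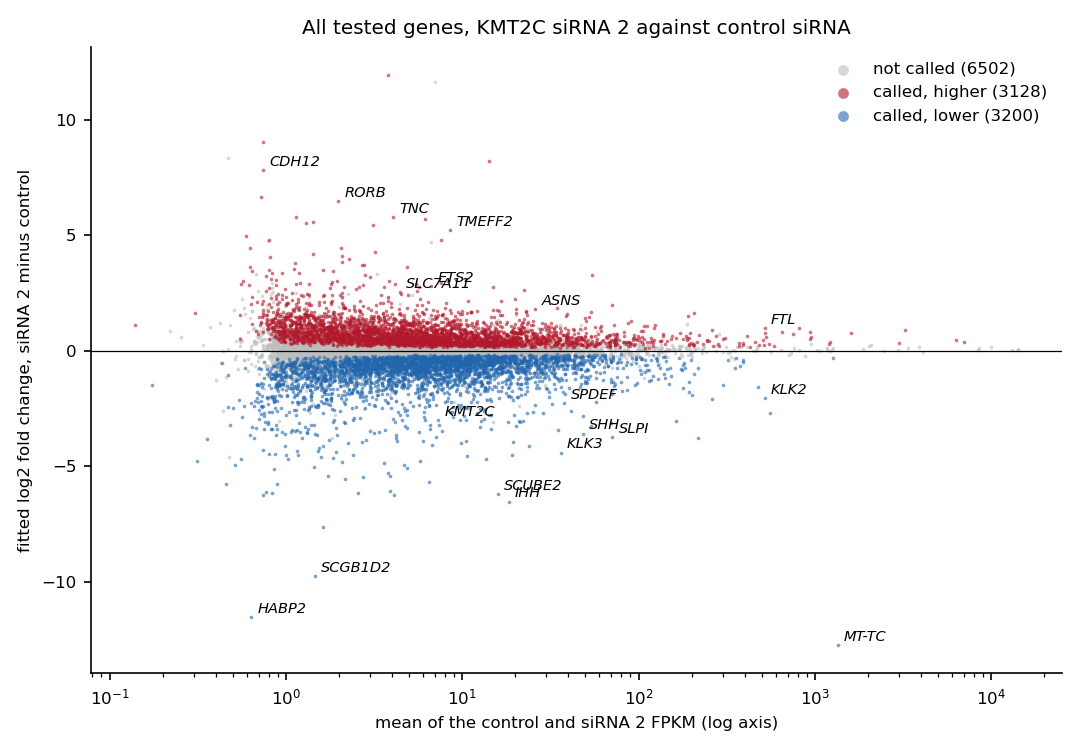
Fitted log2 fold change of siRNA 2 minus control for each of the 12830 tested genes (vertical axis) against the mean of the control and siRNA 2 group means in FPKM on a log axis, with 3128 genes called higher in red, 3200 called lower in blue and the rest in grey. Large falls reach abundant genes such as KLK2, KLK3 and SLPI, while most of the largest rises belong to genes below 10 FPKM.

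Among 19 other tested genes of H3K4 methyltransferase complexes, 2 rose, 6 fell and 11 were not called. They include other methyltransferases and subunits of complexes without KMT2C. NCOA6, a subunit found only in the KMT2C and KMT2D complexes, fell by 1.28 on the log2 scale, from 16.4 to 7 FPKM. MEN1, the menin scaffold of the KMT2A and KMT2B complexes, fell by 0.94. KMT2D, the closest relative of KMT2C, had 12.8, 11.9 and 12.3 FPKM in the control libraries and 8.43, 8.63 and 8.73 with siRNA 2. The groups did not overlap (log2 fold change -0.58), whereas siRNA 1 gave 0.01. The core subunits ASH2L and WDR5 rose by 0.39 and 0.25. Another core subunit, DPY30, gave -0.35 and was called, but 50% of its exon bases are shared with MEMO1 in the annotation, so its counts are uncertain. The values of KMT2A (-0.08 ± 0.13), KMT2B (0.08 ± 0.10), SETD1A (0.10 ± 0.08) and KDM6A (0.11 ± 0.09) did not pass the test.

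Genes of the integrated stress response rose with siRNA 2. In this pathway, kinases that sense amino acid shortage, unfolded protein or other stress phosphorylate the initiation factor eIF2, the transcription factor ATF4 is then made in larger amounts, and ATF4 with C/EBP partners activates genes for amino acid synthesis, amino acid import and tRNA charging. Of 21 tested members of this list, 15 rose, 1 fell and 5 were not called. Their median log2 fold change was 0.81, against 0.02 over all genes, and -0.01 with siRNA 1. In the direct test of siRNA 2 against siRNA 1, 17 of the 21 were higher with siRNA 2 and 1 was lower.

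SLC7A11, the cystine and glutamate exchanger, had 1.5, 1.53 and 0.751 FPKM in control libraries and 7.84, 8.88 and 6.05 with siRNA 2. Every siRNA 2 library was above every control library, and the log2 fold change was 2.54 ± 0.27 (adjusted p = 8.49e-05). ASNS, which makes asparagine, had 15.3, 8.94 and 9.31 FPKM in control libraries and 53.7, 35.5 and 33.3 with siRNA 2. The first library of each group was its highest, and the groups did not overlap (1.82 ± 0.25, adjusted p = 0.000378). In the annotation, 45% of the exon bases of ASNS are shared with a gene known only by a clone identifier. PSAT1, an enzyme of serine synthesis, had 31.6, 31.1 and 22.6 FPKM in control libraries and 76.7, 81.3 and 60.03 with siRNA 2, a rise of 1.30 ± 0.15. With siRNA 1 its value was -1.97, so the siRNAs moved it in opposite directions, and the tested difference between them was 3.27 ± 0.16.

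The transcription factor genes CEBPB (1.73 ± 0.14), ATF3 (1.15 ± 0.20) and CEBPG (0.81 ± 0.09) rose as well. SESN2, a brake on the growth kinase mTORC1, went from 2.03 to 5.76 FPKM. The folate and serine enzymes MTHFD2 (1.24 ± 0.13), SHMT2 (0.80 ± 0.14) and PHGDH (0.40 ± 0.08) rose too. ATF4 RNA was at 21.6 and 31.2 FPKM and did not pass the test, nor did DDIT3 (0.85 ± 0.34), CHAC1 (0.96 ± 0.39) or TRIB3 (-0.02 ± 0.09). DESeq2 called DDIT3 and CHAC1 higher, ATF4 was called without control library 2, CHAC1 without control library 1 and DDIT3 without siRNA 2 library 2. ATF4 is known to be controlled mainly at translation, which RNA levels do not show. The member that fell was EIF2AK3, the kinase PERK, at -0.39 ± 0.14, and this call was lost with upper quartile scaling.

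Aminoacyl-tRNA synthetases, the enzymes that charge tRNAs with amino acids and known targets of the same response, moved with it. Of the 20 cytosolic members tested, 14 rose and 0 fell, with a median of 0.47 (0.13 with siRNA 1). CARS1, for cysteine, had 3.38, 3.48 and 2.91 FPKM in control libraries and 8.8, 9.63 and 7.63 with siRNA 2. It rose by 1.36 ± 0.10, and siRNA 1 gave -0.17. EPRS1, for glutamate and proline, rose by 0.98 ± 0.08 and YARS1, for tyrosine, by 0.89 ± 0.12. GARS1 (-0.16 ± 0.09), FARSA (-0.05 ± 0.08) and WARS1 (0.09 ± 0.12) did not pass the test.

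The starts of these genes were read for the C/EBP-ATF composite element, the sequence that ATF4 with a C/EBP partner is known to bind. The letters searched were TGATGNAA, on both strands, in windows of 300 bases from 250 before to 50 after each start in RefSeq (GRCh38.p14). Other motifs may overlap it. Some genes have several windows, and a gene was counted once, as a match if any of its windows held the letters. Of 11 integrated stress response genes that rose and have a window, 4 hold a match, as do 6 of 10 aminoacyl-tRNA synthetase genes that rose. Over all tested members with a window, whatever their call, these counts are 5 of 17 and 7 of 16. The share is 2.41% over 8925 tested genes with a window, 3.08% over those that rose and 2.69% over those that fell. Over all 27305 genes with a window, tested or not, it is 4.46%. Counted by window instead of by gene, it is 3.62% over all 35116 windows. The motif and its lists were chosen with the expression values known, so these shares are a description. Below are the windows with a match of the 5 rising genes with the largest log2 fold change, printed on the strand of the gene with the matched letters in capitals.
ASNS: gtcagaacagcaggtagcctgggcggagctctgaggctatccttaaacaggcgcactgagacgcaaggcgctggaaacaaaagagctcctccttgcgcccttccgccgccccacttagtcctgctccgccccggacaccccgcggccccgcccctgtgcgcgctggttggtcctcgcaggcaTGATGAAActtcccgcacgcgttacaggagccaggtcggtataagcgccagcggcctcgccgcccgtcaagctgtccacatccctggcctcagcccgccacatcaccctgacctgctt
CARS1: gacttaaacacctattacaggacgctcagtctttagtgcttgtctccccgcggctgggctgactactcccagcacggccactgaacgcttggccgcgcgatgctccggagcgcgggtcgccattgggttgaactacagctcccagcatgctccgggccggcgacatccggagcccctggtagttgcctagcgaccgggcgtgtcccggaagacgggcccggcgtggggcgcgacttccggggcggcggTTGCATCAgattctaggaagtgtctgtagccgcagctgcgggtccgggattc
ATF3: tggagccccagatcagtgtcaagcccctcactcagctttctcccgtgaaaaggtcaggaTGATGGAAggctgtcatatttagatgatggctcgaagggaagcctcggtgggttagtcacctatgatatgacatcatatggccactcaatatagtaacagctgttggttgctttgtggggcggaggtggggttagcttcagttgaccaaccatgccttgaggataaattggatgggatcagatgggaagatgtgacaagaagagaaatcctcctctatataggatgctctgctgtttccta
CEBPG: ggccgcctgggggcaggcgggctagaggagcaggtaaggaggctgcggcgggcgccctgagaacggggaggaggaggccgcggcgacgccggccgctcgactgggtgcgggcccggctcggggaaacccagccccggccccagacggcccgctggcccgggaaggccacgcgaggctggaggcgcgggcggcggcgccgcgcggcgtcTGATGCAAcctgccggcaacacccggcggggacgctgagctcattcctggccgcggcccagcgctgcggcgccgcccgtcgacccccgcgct
MARS1: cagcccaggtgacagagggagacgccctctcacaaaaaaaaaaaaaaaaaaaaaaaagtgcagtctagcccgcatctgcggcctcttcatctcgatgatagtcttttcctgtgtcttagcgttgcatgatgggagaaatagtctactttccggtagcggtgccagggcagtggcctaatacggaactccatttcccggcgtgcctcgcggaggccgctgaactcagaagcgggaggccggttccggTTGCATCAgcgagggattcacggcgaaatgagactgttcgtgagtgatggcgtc
The ASNS window lies at chr7:97872359-97872658 on the minus strand and its match begins 68 bases before the start. The CARS1 window lies at chr11:3057374-3057673 on the minus strand, and its match begins 2 bases before the start. For ATF3 the window is chr1:212565157-212565456 on the plus strand, with the match 191 bases before the start. The CEBPG window at chr19:33373863-33374162 on the plus strand has its match 42 bases before the start. For MARS1 the window is chr12:57487818-57488117 on the plus strand and the match begins 4 bases before the start. MARS1 RNA rose by 0.69 ± 0.11 with siRNA 2, and its exons overlap those of DDIT3 in the annotation. ASNS, CARS1, ATF3 and CEBPG each have another window, which holds no match. No match was found for CEBPB, SESN2, PSAT1 or MTHFD2 within their windows, and SLC7A11 is not in this table.

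Chaperones of the endoplasmic reticulum, which respond to unfolded protein through ATF6 and XBP1 as well as through PERK, were divided. Of 24 tested, 9 rose and 5 fell. HYOU1 (0.67 ± 0.09), CRELD2 (0.68 ± 0.12), MANF (0.46 ± 0.09) and HERPUD1 (0.42 ± 0.09) were among those that rose. HSPA5, the main chaperone of this compartment, had 126, 128 and 129 FPKM in control libraries and 134, 132 and 146 with siRNA 2 and was not called. ERO1B, an oxidase that helps to form disulfides, fell by 1.03 and the chaperone CALR by 0.40. Of 16 heat shock genes, 2 rose and 3 fell, a balance that turned with upper quartile scaling.

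Replication-dependent histone genes, which supply new nucleosomes in S phase and give RNAs without a poly(A) tail, were mostly higher. Of 29 tested, 16 rose, 1 fell and 12 were not called, with a median of 0.83 (-0.22 with siRNA 1). H2AC6 had 5.71, 5.3 and 3.83 FPKM in control libraries and 10.9, 18.7 and 9.76 with siRNA 2, a rise of 1.35 ± 0.26. H2BC14 (2.26 ± 0.50), H2BC17 (1.54 ± 0.41) and H3C10 (0.89 ± 0.14) rose too, and H2BC9 fell by 1.26. Against siRNA 1 directly, 17 of the 29 were higher with siRNA 2 and 1 was lower. How RNA was selected for the libraries is not given in the sources used here, and histone genes are near-identical copies of each other, so the split of reads among them is uncertain.

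**Figure D2:**
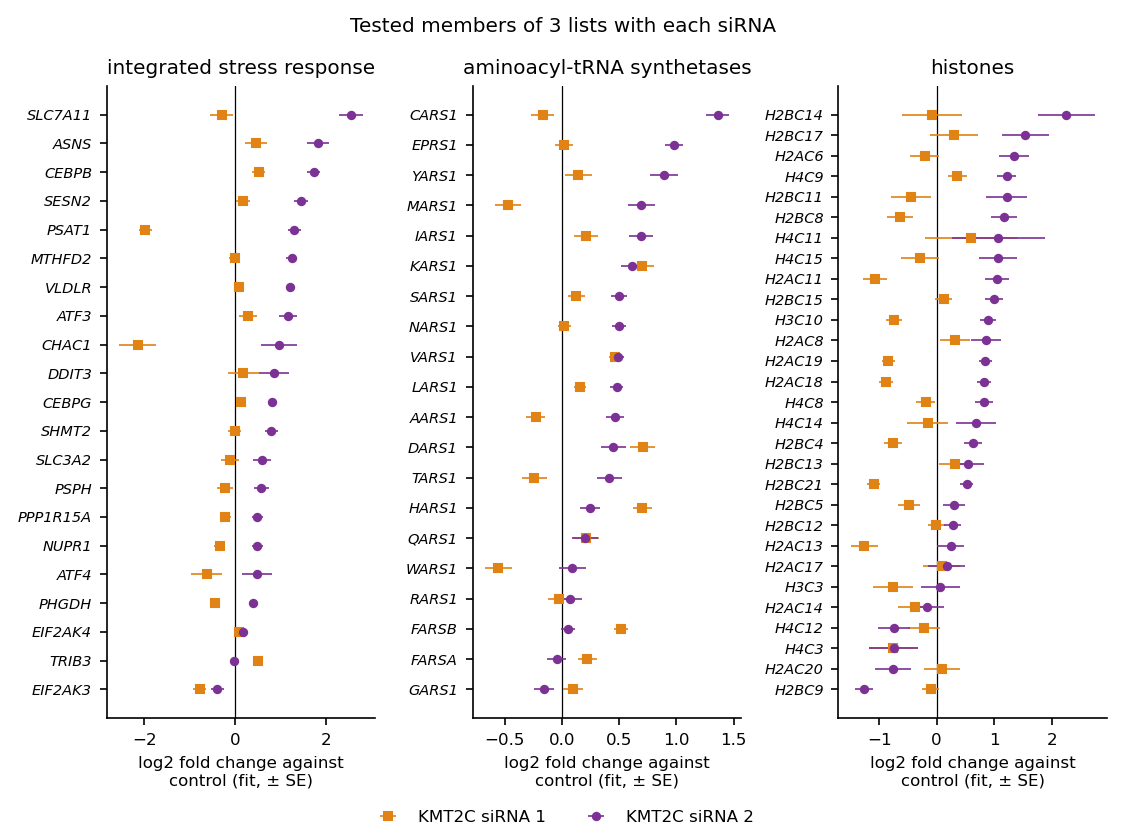
Log2 fold change against control (horizontal axis, points with SE from the edgeR fit) of the 21 integrated stress response, 20 aminoacyl-tRNA synthetase and 29 histone genes tested, with siRNA 2 as purple circles and siRNA 1 as orange squares. Most purple circles lie to the right of 0. The median of the orange squares is -0.01 for the stress response, 0.13 for the synthetases and -0.22 for the histones. With siRNA 1, 0 histone genes were called higher and 8 lower. PSAT1 is at 1.30 with siRNA 2 and -1.97 with siRNA 1.

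The luminal program of prostate epithelium was lower with siRNA 2. Of 19 tested luminal genes, 14 fell, 2 rose and 3 were not called, with a median of -0.79 (-0.24 with siRNA 1). SPDEF, a factor of secretory luminal cells, had 63.9, 60.9 and 62.3 FPKM in control libraries and 14.8, 13.1 and 12.9 with siRNA 2. It fell by 2.25 while siRNA 1 gave 0.41, and the tested difference was -2.66 ± 0.08 (adjusted p = 7.78e-07). KRT19 (-2.35 ± 0.19), KRT8 (-1.27 ± 0.14), KRT18 (-0.79 ± 0.14), and FOLH1 (-1.12 ± 0.10), which encodes prostate specific membrane antigen, fell as well. The protease gene HPN fell from 12.7 to 6.64 FPKM. The exceptions were PSCA and ESRP1, which rose by 1.27 and 0.39, and EPCAM, at 99.2 and 91.1 FPKM, which was not called. In the keratin family, 5 of 6 tested genes fell and 0 rose, the furthest being KRT2, from 2.81 to 0.0854 FPKM. In the annotation, 16% of the exon bases of KRT18 are shared with KRT8 and 21% of those of PSCA with JRK.

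Transcription factors of the prostate lineage followed the same direction for the most part, with 14 of 23 lower and 5 higher. GATA2, a zinc finger factor of prostate enhancers, fell from 131 to 41.7 FPKM (-1.71 ± 0.08). HOXB13, the posterior homeobox factor of prostate, had 191, 177 and 216 FPKM in control libraries and 88.8, 88.7 and 91 with siRNA 2. It fell by 1.18, against -0.19 with siRNA 1. ERG, driven by the TMPRSS2 promoter in this line, fell from 63.9 to 32.3 FPKM (-1.04 ± 0.05), and TMPRSS2 fell by 1.22. ELF1 (-1.30 ± 0.11), KLF5 (-1.74 ± 0.15) and EHF (-0.81 ± 0.08) fell as well, while FOXA1 was called at -0.16 ± 0.05, a small change whose call was lost with upper quartile scaling and without any 1 of the 6 libraries. ETS2 rose from 1.61 to 11.7 FPKM (2.81 ± 0.08) and SOX4 by 0.64.

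Among nuclear receptors and genes of androgen metabolism, 10 of 22 tested rose and 5 fell. NR3C1, the glucocorticoid receptor, had 0.925, 0.845 and 0.608 FPKM in control libraries and 2.08, 2.04 and 2.31 with siRNA 2, a rise of 1.38 ± 0.16 where siRNA 1 gave 0.02. NR3C2, the mineralocorticoid receptor, had 1.34, 1.45 and 1.67 FPKM in control libraries and 7.38, 5.89 and 6.1 with siRNA 2. It rose by 2.06 ± 0.14, and siRNA 1 gave 0.11. UGT2B11 (2.42 ± 0.15) and UGT2B17 (1.44 ± 0.34), of the family that conjugates androgens to glucuronic acid, were among those that rose, and their near-identical copies make the split of reads uncertain.

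Genes known to be induced by androgen were mostly lower. Of 25 tested, 15 fell, 4 rose and 6 were not called, with a median of -0.46 (-0.33 with siRNA 1). KLK3 had 55.8, 62.2 and 88.7 FPKM in control libraries and 2.75, 3.89 and 3.53 with siRNA 2. It fell by 4.40 (adjusted p = 1.57e-06), further than with siRNA 1 (-2.94), and the tested difference was -1.46 ± 0.20. KLK2, its neighbour in the kallikrein cluster, fell from 828 to 212 FPKM (-2.02 ± 0.07). SLC45A3 (-1.65 ± 0.10) and NDRG1 (-1.37 ± 0.09) fell too. Members that rose were FKBP5, a chaperone of steroid receptors (1.55 ± 0.07), ADAMTS1 (1.74 ± 0.09), KLK4 (0.51 ± 0.09) and ABCC4 (0.37 ± 0.08). Of 14 genes known to be repressed by androgen, 6 rose and 5 fell. AKR1C3, which makes testosterone from a weaker androgen, fell from 26.6 to 2.67 FPKM (-3.37 ± 0.18).

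**Figure D3:**
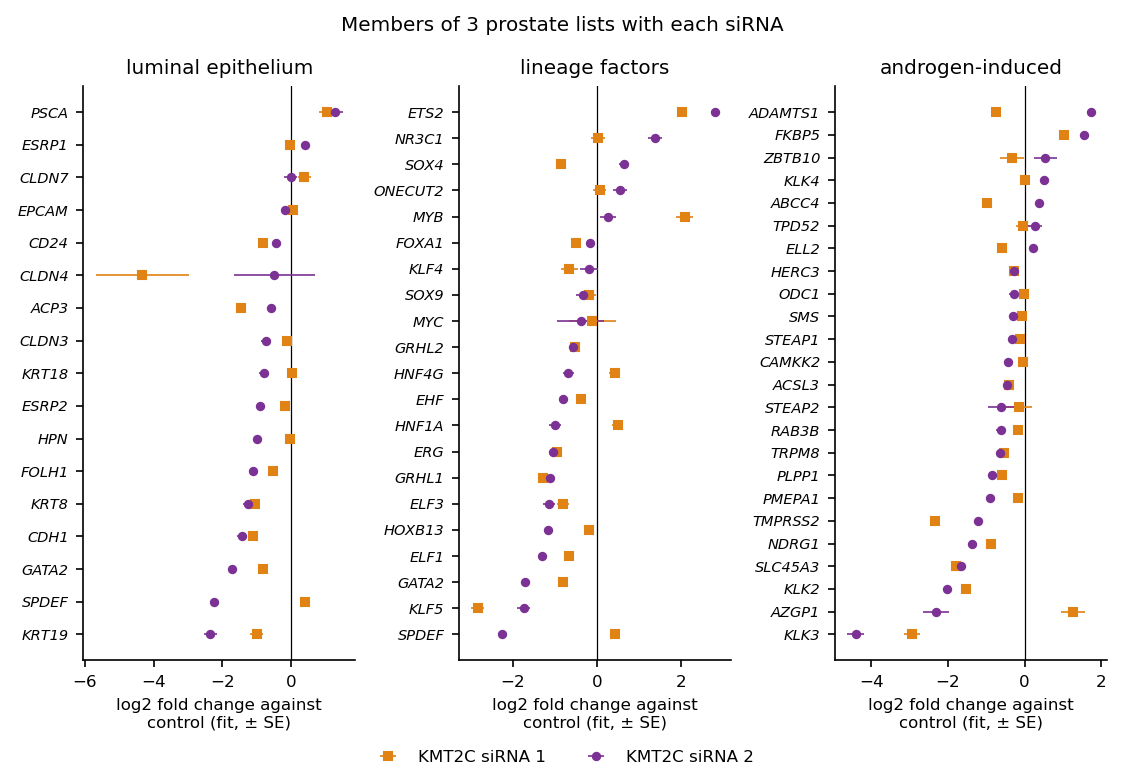
Log2 fold change against control (horizontal axis, points with SE from the edgeR fit) of 17 luminal, 21 lineage factor and 24 androgen-induced genes among those tested, with siRNA 2 as purple circles and siRNA 1 as orange squares. SPDEF has its siRNA 2 point at -2.25 and its siRNA 1 point at 0.41, and KLK3 is the lowest of the androgen-induced genes drawn.

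Among homeobox genes of the HOX clusters, 8 of 17 fell and 4 rose. HOXA10 (-1.21 ± 0.07) and HOXC13 (-1.29 ± 0.19) fell, and HOXC8 (1.79 ± 0.35), HOXD4 (1.52 ± 0.28) and HOXD13 (1.81 ± 0.23) rose from below 1 FPKM. Of 5 basal epithelial genes tested, 3 fell, among them KRT14 (-1.65 ± 0.13), which siRNA 1 moved by 1.49. Of 5 neuroendocrine genes tested, 4 rose, with UCHL1 at 0.475 and 1.75 FPKM the largest (1.82 ± 0.39). SYP, which helps to define that cell type, had 1.35 and 1.39 FPKM and was not called, and CHGA did not reach the level needed for testing.

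Genes of epithelial cell junctions fell without a called rise. Tight junctions seal the space between epithelial cells, desmosomes and adherens junctions anchor them to each other, and gap junctions pass small molecules. Of 30 tested, 19 fell, 0 rose and 11 were not called, with a median of -0.63 (-0.46 with siRNA 1). CGN, cingulin of the tight junction, had 17.4, 17.6 and 20.6 FPKM in control libraries and 1.29, 1.19 and 1.15 with siRNA 2. It fell by 3.99 (adjusted p = 1.33e-07), and siRNA 1 gave -1.66. GJB1, the gap junction protein connexin 32, fell from 9.47 to 1.96 FPKM (-2.33 ± 0.09), while siRNA 1 gave 0.43. The desmosomal cadherins DSG2 (-1.73 ± 0.11) and DSC2 (-1.70 ± 0.09), the claudin CLDN8 (-2.65 ± 0.15), occludin OCLN (-1.38 ± 0.21) and E-cadherin CDH1 (-1.44 ± 0.15) fell as well. CLDN4 had 58, 0.954 and 8.47 FPKM in control libraries and 16.4, 16.3 and 16.5 with siRNA 2. Its control libraries differed widely among themselves, and it was not called.

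The contacts with the matrix changed in the same direction for most members. Of 21 collagen, laminin and integrin genes tested by symbol, 11 fell and 4 rose. The integrin subunits ITGB5 (-1.72 ± 0.09), ITGAV (-1.44 ± 0.11) and ITGA6 (-1.36 ± 0.20) and the laminin LAMB1 (-1.42 ± 0.06) fell. COL14A1 (1.50 ± 0.12) and COL4A5 (1.10 ± 0.09) rose. In the cadherin family, 8 of 16 rose and 5 fell. Most of those that rose were clustered protocadherins, such as PCDHB8 (1.21 to 6.38 FPKM, 2.34 ± 0.16), whose close copies make the split of reads uncertain. CDH12 is described below with the largest rises, and CDH17, an intestinal cadherin, fell from 1.62 to 0.159 FPKM.

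Every called gene of the hedgehog list fell. Hedgehog ligands are secreted by epithelium, are released with the help of SCUBE2, bind PTCH1 on the receiving cell, and so free SMO to act on the GLI factors, which SUFU restrains. Of 8 tested, 7 fell, 0 rose and 1 was not called. The ligand IHH had 32.5, 30.6 and 45.6 FPKM in control libraries and 0.399, 0.338 and 0.479 with siRNA 2. This was among the largest falls in the table, at -6.53 ± 0.25, against -4.37 with siRNA 1. The ligand SHH had 86, 79.1 and 101 FPKM in control libraries, 7.22, 8.13 and 7.87 under siRNA 2 and 0.766, 0.475 and 0.406 under siRNA 1. It fell by 3.58 with siRNA 2 and lay lower still with siRNA 1, a tested difference of 3.77 ± 0.23. SCUBE2 went from 31.4 to 0.444 FPKM (-6.19 ± 0.16), GLI3 fell by 1.90 and PTCH1, which is both receptor and target, by 0.88. SMO was at 4.18 and 4.39 FPKM and was not called.

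In the TGF-beta and BMP list, 15 of 30 tested genes fell and 4 rose. The ligand TGFB2 had 0.181, 0.177 and 0.149 FPKM in control libraries and 4.31, 4.54 and 3.02 with siRNA 2, a rise of 4.48 ± 0.22. GDF15, a distant ligand of the family that stress is known to induce, rose by 1.23 ± 0.17. The decoy receptor BAMBI fell by 1.64, and the BMP targets ID1 (-0.90), ID2 (-0.57) and ID3 (-0.84) fell. The receptor BMPR1A fell by 0.50. With limma on log2(FPKM + 1) the list gave 7 higher and 13 lower.

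Of 22 Wnt genes, 9 fell and 4 rose. The receptors FZD4 (-1.61 ± 0.10) and FZD3 (-1.35 ± 0.33) fell, and the ligand WNT10B rose (0.867 to 3.43 FPKM, 1.92 ± 0.16). Of 18 Notch genes, 6 fell and 3 rose. The ligand JAG1 (-1.41 ± 0.10) and the receptors NOTCH2 (-1.03 ± 0.10) and NOTCH3 (-1.73 ± 0.24) fell, while the receptor NOTCH1 rose by 1.10 ± 0.10. Receptor tyrosine kinases and their feedback genes were split, with 9 higher and 9 lower of 25. MERTK (-3.64 ± 0.31), the ERK inhibitor SPRED2 (-2.79 ± 0.20), ERBB3 (-1.50 ± 0.11) and EGFR (-0.91 ± 0.13) fell. The insulin receptor substrate IRS1 rose from 0.557 to 2.53 FPKM (2.13 ± 0.22), and the ephrin receptors EPHA7 (4.80 ± 0.50) and EPHA4 (2.02 ± 0.10) rose as well.

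Regulators of the G1 phase were more often lower than higher. Of 23 tested, 12 fell and 2 rose. CDKN2D, the inhibitor p19 of CDK4 and CDK6, had 16.4, 16.7 and 13.6 FPKM in control libraries and 2.49, 2.16 and 2.08 with siRNA 2, a log2 fold change of -2.85. CDKN1A, the inhibitor p21, had 32.3, 33 and 31.4 FPKM in control libraries and 9.25, 9.66 and 6.34 with siRNA 2, a log2 fold change of -1.99 against -0.39 with siRNA 1. Inhibitors and drivers of the cycle fell side by side, since CDKN2C (-1.10 ± 0.11), cyclin E2 CCNE2 (-0.94 ± 0.09), cyclin D1 CCND1 (-0.82 ± 0.06) and E2F2 (-1.08 ± 0.08) were all lower. In the annotation, 37% of the exon bases of CCNE2 are shared with INTS8. The 2 that rose were E2F3, from 14.2 to 30.1 FPKM (1.03 ± 0.07), and CDKN1C, which is an inhibitor of the cycle. CDKN1A is also a known target of p53. Of 21 p53 targets, 8 fell, including BTG2 (-2.52 ± 0.07) and MDM2 (-1.52 ± 0.08), and 7 rose, including BBC3 (1.56 ± 0.23), which encodes the death protein PUMA.

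DNA replication genes gave 15 lower and 3 higher of 41, and 7 higher and 13 lower with upper quartile scaling. UHRF1 (-0.69) and DNMT1 (-0.47), which copy DNA methylation after replication, fell. Of 39 mitotic genes, 11 rose and 4 fell. HMMR (1.13 ± 0.11), CENPF (0.78 ± 0.06) and BUB1B (0.65 ± 0.08) rose, while CDC25B (-1.55 ± 0.14) and FOXM1 (-0.88 ± 0.17) fell. Against siRNA 1 the lists parted: 25 of 41 replication genes were lower with siRNA 2 and 4 higher, whereas 19 of 39 mitotic genes were higher and 4 lower. In homologous recombination, 5 of 33 rose and 6 fell, or 6 and 5 with upper quartile scaling, with TOPBP1 (-1.21 ± 0.07), RAD54L (-1.01 ± 0.09) and BARD1 (3.57 to 1.85 FPKM) lowest and ATM (0.98 ± 0.14) highest, and RAD54L shares 25% of its exon bases with LRRC41.

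**Figure D4:**
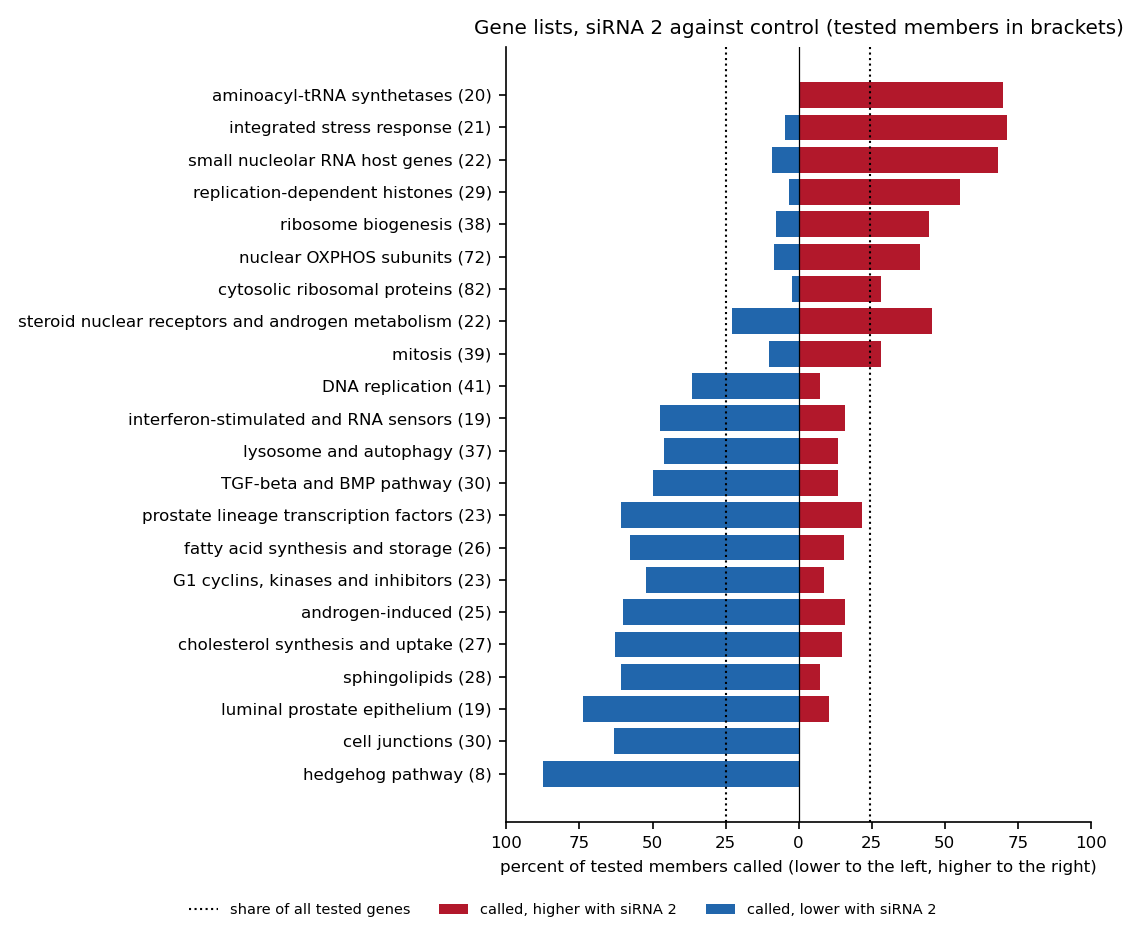
Percent of the tested members of 22 gene lists called higher (red, to the right) and lower (blue, to the left) with siRNA 2 against control, with the number tested in brackets and dotted lines at the shares over all tested genes, 24.4% and 24.9%. Aminoacyl-tRNA synthetases and integrated stress response genes reach furthest right, and hedgehog, junction and luminal genes furthest left.

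Lipid genes fell along several branches. Of 27 genes of cholesterol synthesis and uptake, 17 fell and 4 rose. MSMO1 (-1.37 ± 0.07) and HMGCS1 (-1.12 ± 0.17) fell, and siRNA 1 gave -1.99 for HMGCS1. In the direct test, 17 of the 27 genes were higher with siRNA 2 than with siRNA 1 and 3 were lower, the median being -0.42 and -1.04 against control. Of 26 genes of fatty acid synthesis and storage, 15 fell and 4 rose. FASN went from 162 to 79.5 FPKM (-1.09 ± 0.07) and SCD from 269.7 to 166 (-0.75 ± 0.10). Of 20 fatty acid oxidation genes, 10 fell and 4 rose. The peroxisomal enzymes ACOX2 (-3.06 ± 0.19) and AMACR (-2.11 ± 0.07), the latter a known prostate cancer marker, were lowest, and ACADL rose from 0.298 to 3.42 FPKM (3.46 ± 0.19).

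Sphingolipid genes were lower at several steps of the pathway. Ceramide is built by serine palmitoyltransferase and ceramide synthases, turned into sphingomyelin or glycosphingolipids, and broken down to sphingosine, whose phosphate acts on surface receptors. Of 28 tested, 17 fell and 2 rose. SPTLC3, a subunit of serine palmitoyltransferase, fell from 1.23 to 0.0917 FPKM (-3.78 ± 0.33), where siRNA 1 gave -0.30. The desaturases DEGS1 (138 to 52 FPKM) and DEGS2 (10.6 to 1.51 FPKM), which make ceramide from its precursor, fell, as did the ceramidase ACER2 (-2.93 ± 0.20) and the sphingomyelinase SMPD1 (-1.68 ± 0.15). S1PR3, a receptor of sphingosine phosphate, had 1.11, 1.17 and 2.31 FPKM in control libraries and 0.0339, 0.0138 and 0.0177 with siRNA 2, a log2 fold change of -6.12.

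Energy metabolism did not move as a block. Of 72 nuclear genes for subunits of oxidative phosphorylation, 30 rose and 6 fell, with a median of 0.20. Of 13 mitochondrial genes for such subunits, 3 rose, namely MT-ND1 (0.40 ± 0.08), MT-ND2 (0.48 ± 0.09) and MT-ND3 (0.33 ± 0.08). In the citrate cycle and glutamine list, 14 of 33 rose and 9 fell. IDH2, a mitochondrial isocitrate dehydrogenase, had 256, 253 and 291 FPKM in control libraries and 91, 89 and 91.6 with siRNA 2, a log2 fold change of -1.61 against -0.64 with siRNA 1. PCK2, a mitochondrial enzyme that ATF4 is known to induce, rose from 3.71 to 13.2 FPKM (1.78 ± 0.22). Of 30 genes of glycolysis and hypoxia, 7 rose and 8 fell, a balance that turned with the scaling, with PGK1 (-1.17 ± 0.10) and PKM (-1.08 ± 0.07) lower and PFKP (1.26 ± 0.14) and VEGFA (0.81 ± 0.15), a hypoxia target, higher. Of 27 antioxidant genes, 10 rose and 6 fell, and FTL, the ferritin light chain, went from 339 to 699.8 FPKM (0.99 ± 0.08).

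Lysosome and autophagy genes gave 17 lower and 5 higher of 37. LAMP2, a protein of the lysosome membrane, had 15.2, 14.9 and 17 FPKM in control libraries and 3.31, 3.16 and 3.24 with siRNA 2, a log2 fold change of -2.33. ATP6V1H, a subunit of the proton pump, fell by 2.20 where siRNA 1 gave -0.19, and the protease CTSA fell by 2.17. The autophagy genes MAP1LC3B (0.72 ± 0.09) and BECN1 (0.72 ± 0.09) rose.

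Genes for the making of ribosomes were more often higher than lower. Of 38 ribosome biogenesis genes, 17 rose and 3 fell, with NOLC1 (19.6 to 57.8 FPKM, 1.50 ± 0.05) and TCOF1 (1.24 ± 0.05) highest. Of 82 genes picked by ribosomal protein symbols, 23 (28.05%) rose, near the 24.4% over all tested genes, and 2 (2.4%) fell. With upper quartile scaling 34 of them rose and 1 fell, beside 3900 higher and 2665 lower of all 12830 genes. Of the same 82, 40 were lower with siRNA 2 than with siRNA 1. Of 22 small nucleolar RNA host genes, 15 rose, such as SNHG4 (1.18 ± 0.07) and SNHG19 (0.92 ± 0.18), and 2 fell. Processed pseudogenes, which are copies of spliced RNAs, had 236 called higher and 34 lower of 688 tested. Within these, pseudogenes of ribosomal proteins gave 82 higher and 2 lower of 157, with a median of 0.63 (0.76 with siRNA 1). Reads shared with the parent genes make the pseudogene counts uncertain.

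Immune signalling genes called by the test were mostly lower. In the NF-kappaB list, 6 of 13 fell and 0 rose. BIRC3, an inhibitor of cell death, had 7.51, 6.61 and 9.31 FPKM in control libraries and 0.644, 0.536 and 0.6 with siRNA 2 (-3.77 ± 0.17), and ACKR3, a scavenging receptor for CXCL12, fell from 125 to 14.9 FPKM. Of 19 interferon-stimulated genes and RNA sensors, 9 fell and 3 rose. OAS1 (-2.12 ± 0.34), IRF1 (-1.83 ± 0.15) and STAT2 (-0.78 ± 0.14) fell, while the RNA sensor IFIH1 rose by 1.20. In antigen presentation by MHC class I, HLA-C (-1.51 ± 0.24) and HLA-B (-1.22 ± 0.29) fell, while B2M (0.59 ± 0.12) and TAP2 (0.91 ± 0.09) rose. The metallothioneins MT2A, at 31.2, 31.7 and 35.4 FPKM in control libraries and 8.71, 7.71 and 9.14 with siRNA 2, and MT1E (-1.68 ± 0.13) fell. With siRNA 1, MT2A gave 0.18 and MT1E 0.83, and for MT2A the tested difference was -2.18 ± 0.12.

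Other writers and readers of chromatin marks showed no common direction. Of 28 acetyltransferases and enhancer readers, 9 fell and 4 rose, or 7 and 7 with upper quartile scaling. The mediator kinase CDK19 had 53, 49.9 and 57.2 FPKM in control libraries and 11.2, 10.4 and 12.6 with siRNA 2, a log2 fold change of -2.29 that lay below that with siRNA 1 (-0.79, tested difference -1.50 ± 0.10). The mediator subunit MED12 fell by 1.30. Of 16 histone demethylases, 6 rose and 4 fell, with KDM2B (1.34 ± 0.10) and KDM6B (1.13 ± 0.08), an H3K27 demethylase, highest. With upper quartile scaling that list gave 8 higher and 1 lower. In the Polycomb list, 6 rose and 7 fell of 26, against 11 and 5 with upper quartile scaling. PHC1 (-1.58 ± 0.14), with 18% of its exon bases shared with M6PR, was lowest and CBX7 (0.87 ± 0.08) highest, and EZH2, which methylates H3K27, rose by 0.40 ± 0.08. TET1, which oxidises methylated DNA, rose by 1.34 ± 0.17, while TET2 fell by 0.71.

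The 15 largest rises among named genes with at least 1 FPKM in the siRNA 2 group were mostly of genes near 0 in control cells. This ranking, like that of the falls below, took only called genes whose groups did not overlap in FPKM. CDH12, a neural cadherin, had 0, 0.0164 and 0 FPKM in control libraries and 1.59, 1.34 and 1.52 with siRNA 2. Its control libraries held 2 fragments in all, so the ratio of counts, 243.8, has a 95% counting interval of 67.1 to 2016. RORB, a nuclear receptor of the ROR family, had 0.0487, 0.0522 and 0.0233 FPKM in control libraries and 3.73, 4.01 and 4 with siRNA 2 (6.49 ± 0.29). With siRNA 1 it was at 0.755 FPKM. TNC, the matrix protein tenascin C, had 0.177, 0.113 and 0.12 FPKM in control libraries, 7.01, 5.94 and 10.9 under siRNA 2 and 0.158, 0.134 and 0.167 under siRNA 1. The rise of 5.81 ± 0.29 with siRNA 2 thus stood beside 0.15 with siRNA 1, and the tested difference was 5.66 ± 0.29. TMEFF2, a membrane protein known from prostate, went from 0.421 to 16.6 FPKM (5.23 ± 0.25), and TGFB2 is described above.

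Other genes in this set have known roles in development. PAX1 (0.217 to 12.1 FPKM) and DLX5 (0.498 to 14.7 FPKM) encode patterning factors. EPHA7 (0.0524 to 1.55 FPKM) is an ephrin receptor, and PTPRB (0.0344 to 1.15 FPKM) and PTPRR (0.0511 to 1.21 FPKM) are receptor tyrosine phosphatases. The adhesion receptor ADGRF5, the GTPase regulator ARHGAP20 and C3orf14 had log2 fold changes of 5.81, 4.18 and 5.48. The pseudogene FAHD2P1, with 5.57, overlaps exons of PTPRR, and ABCF2-H2BE1 shares 88% of its exon bases with ABCF2. That readthrough gene had 0.0316, 0.0599 and 0.0553 FPKM in control libraries and 2.62, 2.18 and 2.91 with siRNA 2, so its counts are uncertain. Genes with a clone or assembly identifier in place of a symbol were left out of this ranking.

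Among the 15 largest falls, HABP2 and SCGB1D2 lost all their reads. HABP2, a plasma protease, had 1.06, 1.1 and 1.66 FPKM in control libraries and none in any siRNA 2 library. Against a floor of 3 fragments over the group, it was at least 92.0-fold lower. SCGB1D2, a small secreted protein of glands, had 2.33, 2.09 and 4.34 FPKM in control libraries and none with siRNA 2, at least 26.6-fold lower. FAM3B, a secreted protein, fell from 3.22 to 0.0166 FPKM (-7.61 ± 0.75), and SCGN, a calcium-binding protein, from 5.09 to 0.0685 (-6.14 ± 0.78). HAO1, a peroxisomal oxidase, held 2 fragments in all siRNA 2 libraries together, a ratio of counts of 77.0 with a 95% counting interval of 20.9 to 639.7. APOH, an apolipoprotein, fell by 6.05, where siRNA 1 gave -1.09. TUBB2B, a beta tubulin with close paralogs, fell from 4.25 to 0.0927 FPKM, where siRNA 1 gave -0.65, and its control libraries spread from 0.833 to 6.84 FPKM.

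B3GALT5, which builds type 1 glycan chains, had 9.39, 1.6 and 5.05 FPKM in control libraries and 0.131, 0.125 and 0.119 with siRNA 2 (-5.46 ± 0.59). The control libraries spread widely, and that they lay above all siRNA 2 libraries was a condition of the ranking. Its antisense gene B3GALT5-AS1 fell by 5.77, and the strand used in counting is not given in the sources used here. B3GNT6, of the same glycan family, fell from 12.6 to 0.777 FPKM, and GALNT1, which starts O-glycans, fell from 17.5 to 3.3. The long noncoding RNA LINC02387 fell by 5.67. SNORD22 held 1 fragment with siRNA 2 and lies inside SNHG1, so reads of the host gene cannot be told apart from its own.

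The largest change by log2 was at MT-TC, a mitochondrial tRNA gene. It had 3053, 2611 and 2405 FPKM in control libraries and 0.286, 0.272 and 0.281 with siRNA 2, that is 13942, 13745 and 13314 counts against 2, 2 and 2. It lies at positions 5761 to 5826 of the mitochondrial genome and shares the base at 5826 with MT-TY at 5826 to 5891, both on the minus strand. MT-TY rose in the same libraries, from 11214, 11272 and 10971 counts to 21010, 24484 and 21593 (0.93 ± 0.11). MT-TN next to them had 11063, 10889 and 9043 counts in control libraries and 11943, 13733 and 12043 with siRNA 2. How reads that reach both genes were assigned is not given in the sources used here, so the counts of MT-TC and MT-TY are uncertain.

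By absolute level, the largest gains with siRNA 2 were of mitochondrial genes, abundant housekeeping genes and pseudogenes. The pseudogenes were MTND2P28, MTCO1P12, EEF1A1P5 and RPL41P1, and reads shared with parent genes make their counts uncertain. SLC25A6, an exchanger of ADP and ATP, went from 549.5 to 952 FPKM (0.74 ± 0.05), EEF2, the elongation factor, from 757 to 1130.0 (0.52 ± 0.05), and RPL13A from 1037 to 1405 (0.38 ± 0.10). The losses were led by MT-TC, ADIRF and KLK2. Abundant housekeeping genes were among the largest losses too, so such genes did not move in one direction. They included GAPDH, ACTG1 (434 to 269 FPKM, -0.74 ± 0.08) and RPLP1, and RAB1B was also among the largest losses. ADIRF fell from 958 to 155 FPKM, but 92% of its exon bases are shared with ADIRF-AS1. AIDA fell from 406 to 30.6 FPKM (-3.79 ± 0.22), where siRNA 1 gave -1.86. The secreted protein SPON2 fell from 418 to 103 FPKM (-2.08 ± 0.08). S100A10 (-1.90) and S100A11 (-0.98), small calcium-binding proteins, fell. SLPI, a secreted inhibitor of proteases, had 118, 131 and 148 FPKM in control libraries, 10.3, 11.2 and 9.54 under siRNA 2 and 107, 93 and 97.8 under siRNA 1. It fell by 3.73 with siRNA 2, and the tested difference from siRNA 1 was -3.29 ± 0.12.

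**Figure D5:**
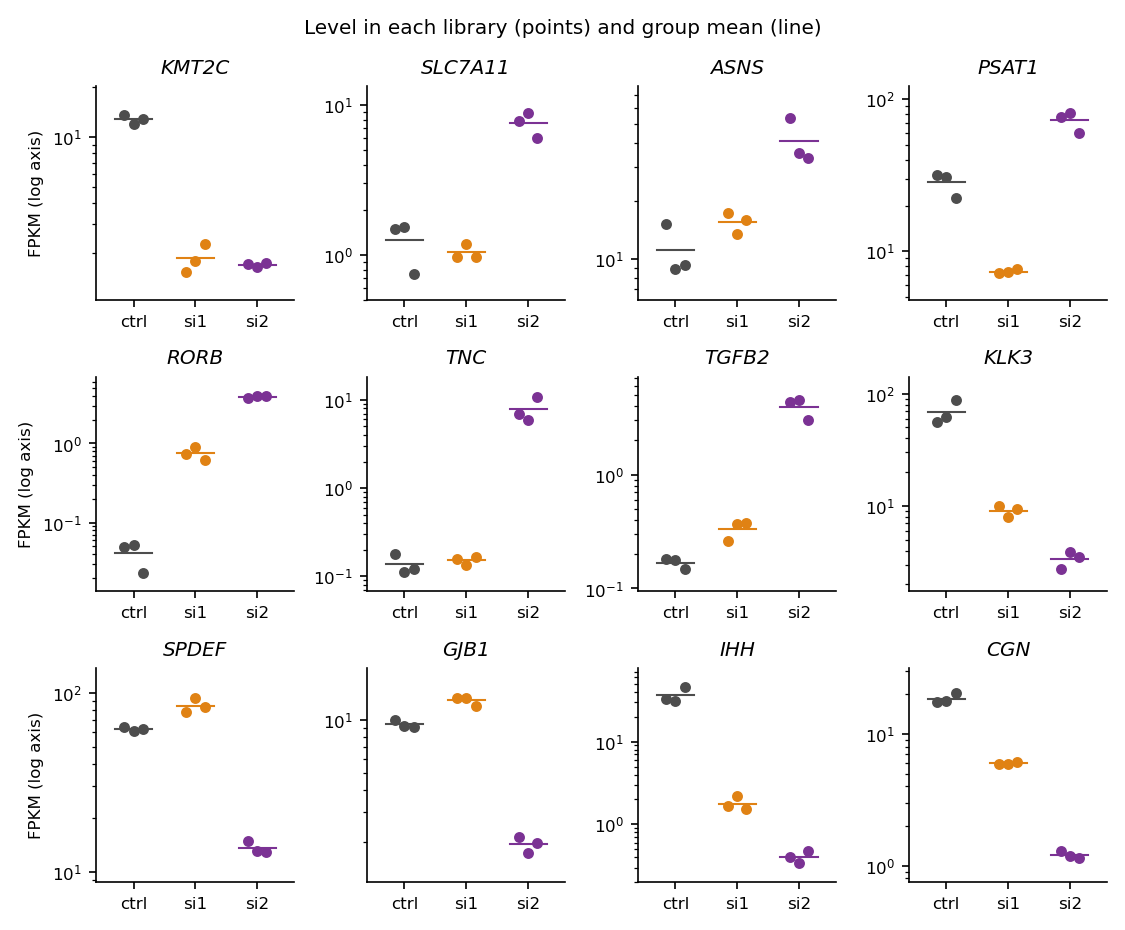
FPKM of 12 genes on log axes in each library of the control (grey), siRNA 1 (orange) and siRNA 2 (purple) groups, with points for libraries and a line for the group mean. In SLC7A11, TNC, SPDEF and GJB1 the siRNA 2 libraries stand apart from both other groups, while KMT2C is low with either siRNA and IHH and CGN are lowest with siRNA 2.

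A strict rule for genes that appear or vanish, at most 0.1 FPKM in every library of one group and at least 1 in every library of the other, took 8 genes that appeared with siRNA 2. They were RORB, ADGRF5, EPHA7, CDH12, PTPRR, PTPRB, FAHD2P1 and ABCF2-H2BE1. Among the 10 listed genes that vanished, MMP28, a matrix protease, had 1.66 FPKM in control libraries and 0.0724 with siRNA 2, and the potassium channel KCNK13 had 1.07 and 0.0401. GTF2IP7 is a pseudogene with close copies, and the other 7 are described above.

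Large families are given beside the shares over all tested genes, 24.4% higher and 24.9% lower. Of 392 zinc finger genes with ZNF symbols, 97 (24.7%) rose, near the share over all genes, and 49 (12.5%) fell. Of 174 solute carriers, 63 (36.2%) fell and 35 (20.1%) rose. SLC44A4, a thiamine and choline transporter, fell from 63.8 to 6.12 FPKM, and SLC6A19, which takes up neutral amino acids, from 4.61 to 0.207. SLC43A1, an amino acid transporter, rose from 1.7 to 13.4 FPKM (2.93 ± 0.19), and the glycine transporter SLC6A9 from 1.25 to 5.57, where siRNA 1 gave -0.58. Of 11 Kruppel-like factors, 5 fell and 3 rose, with KLF7 highest (2.14 ± 0.10). Among the KEGG pathways named in the table with at least 15 tested genes, 268 in all, the lowest medians were those of drug metabolism by cytochrome P450 (-0.67, 12 lower and 5 higher of 21) and of cell adhesion molecules (-0.65, 27 lower and 8 higher of 47). The pathways called arrhythmogenic right ventricular cardiomyopathy (-0.65) and dilated cardiomyopathy (-0.54), which hold integrins, laminin receptors and calcium channels, and sphingolipid metabolism (-0.54) came next. The highest were other types of O-glycan biosynthesis (0.47, 9 higher and 1 lower of 16), systemic lupus erythematosus (0.28), which consists largely of histone genes, and aminoacyl-tRNA biosynthesis (0.24). Glycine, serine and threonine metabolism (0.22) and apoptosis in multiple species (0.22) followed. Protein-coding genes had 2580 higher and 2959 lower of 10732 tested. By chromosome, the share called higher ran from 18.1% on chromosome 20 to 30.6% on chromosome 5 among the numbered chromosomes.

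Finally, siRNA 2 was set against siRNA 1 directly. Both siRNAs lowered KMT2C, and the tested difference for KMT2C itself was -0.17 ± 0.12 (adjusted p = 0.308). Even so, 5068 of the 12830 genes (39.5%) were called between the siRNAs. Of all genes tested, 2422 (18.9%) were higher with siRNA 2 and 2646 (20.6%) lower. Of the genes called both against control and against siRNA 1, 1565 were higher with siRNA 2 than with siRNA 1 and 1944 were lower. Lists with many members called between the siRNAs included the mitochondrially encoded genes (10 higher and 0 lower of 13), the integrated stress response (17 higher and 1 lower of 21), histones (17 and 1 of 29) and cholesterol genes (17 and 3 of 27) on the side of siRNA 2, and DNA replication (4 and 25 of 41) and ribosomal proteins (2 and 40 of 82) on the side of siRNA 1. The control libraries are shared by the comparisons of each siRNA with control, so values for siRNA 1 are given beside those for siRNA 2 and are not independent of them. Whether a difference between the siRNAs comes from KMT2C or from other RNAs that one of them matches cannot be told apart with these samples.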

How the data were processed

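RNA-seq was carried out on 9 libraries of VCaP cells, and the 6 with siRNA 2 or control siRNA are compared here. The authors deposited a table with expected counts and FPKM values for 60612 genes in each library. Bowtie 0.12.2 is named in the submitters' processing notes. The sources used here do not give the counting program, the annotation, the strand setting or the RNA selection. The deposited expected counts were whole numbers, with close to 4 counts for 1 fragment, so rounding changed 0 values. The deposited FPKM values were used for levels and for the filter, and a gene without counts, which the table lists at 0.0001, is printed as 0.

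The 12830 genes that reached 1 FPKM in 3 or more libraries were tested with edgeR 4.0.16 (R 4.3.3), by its quasi-likelihood F test after TMM scaling, over all 9 libraries with 1 mean per group. P-values were adjusted by Benjamini and Hochberg over all tested genes, with calls at 0.05. Values after ± are standard errors of the log2 fold change, computed as its size over the square root of the F statistic. The main test does not adjust for the 4 counts per fragment, dividing the counts by 4 was an alternative, and counting intervals (95%) and the floor of 3 fragments over a group cover counting error only. In the main test the siRNA 2 libraries were not paired with control libraries by their numbers. The test was checked on simulated counts with far fewer changed genes than were called here. That check does not cover a setting in which so many genes change.

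Named genes were KMT2C, other genes of H3K4 methyltransferase complexes and members of gene lists. The 15 largest called rises and falls by log2 fold change and by FPKM were named too. So were the 10 largest differences between siRNAs each way. The last were genes at or below 0.1 FPKM in every library of a group and at or above 1 in the other. The comparison, the gene lists and the named genes were chosen with earlier results of these data known. The ranking by log2 fold change took only genes with at least 1 FPKM in the higher group and no overlap of the groups. Not every gene taken by this rule is reported here. Alternatives were limma 3.58.1, DESeq2 1.42.0, other scalings, filters and sets of samples. Gene lists are described by counts, with no test.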

Additional observations from a re-analysis of the deposited data

Results flagged for a closer look

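The number of genes called between siRNA 2 and siRNA 1, 5068 of 12830, is given for a closer look because both siRNAs target the same RNA. So are the 10 largest differences in each direction among genes also called against control, each tested by edgeR's quasi-likelihood test and given as the log2 difference of siRNA 2 minus siRNA 1. Higher with siRNA 2 were the readthrough gene ABCF2-H2BE1 (11.75), ATOH1 (6.48), CDH12 (5.85), TNC (5.66), DLX5 (4.99), FAHD2P1 (4.98), EPHA7 (4.97), IGFBP5 (4.22), PAX1 (4.11) and SHH (3.775). ABCF2-H2BE1 had no fragment in any siRNA 1 library and was at least 109.6-fold higher with siRNA 2, but it shares most of its exon bases with ABCF2. ATOH1, a factor of secretory and neural fate, had 2 fragments over the siRNA 1 libraries, and the ratio of counts was 95.7 with a 95% counting interval of 26.2 to 796.9. It had 0.108, 0.213 and 0.0403 FPKM in control libraries and 1.41, 1.64 and 1.38 with siRNA 2. IGFBP5, which binds insulin-like growth factors, had 0.487, 0.376 and 1.08 FPKM in control libraries, 0.15, 0.263 and 0.268 under siRNA 1 and 3.88, 4.72 and 4.45 under siRNA 2.

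Lower with siRNA 2 were MT-TC (-12.18), HABP2 (-8.99), SCGB1D2 (-8.55), SLC13A2 (-6.24), HAO1 (-6.15), BMX (-6.04), APOH (-4.96), ERP27 (-4.88), TUBB2B (-4.88) and GUCA2A (-4.76). HABP2 was at least 16.0-fold lower and SCGB1D2 at least 11.7-fold lower than with siRNA 1. For SLC13A2, a citrate and succinate transporter, the ratio of counts was 76.2 (27.9 to 402.7), and for HAO1 it was 73.6 (20.02 to 613.7). BMX, a tyrosine kinase, had 0.989, 0.775 and 1.24 FPKM in control libraries, 2.14, 2.32 and 2.06 under siRNA 1 and 0.0348, 0.0256 and 0.0328 under siRNA 2. ERP27, of the endoplasmic reticulum, went from 7.45 FPKM in control libraries to 0.192, and GUCA2A, a gut peptide, from 1.51 to 0.143.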

How the results depend on the processing

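KMT2C stayed lower and called under every alternative run, from -3.02 to -2.36 on the log2 scale, the smallest size coming from limma on log2(FPKM + 1). No called fold change of a gene named here changed sign, but the balance of calls against control turned, from 3128 higher and 3200 lower to 3900 higher and 2665 lower with upper quartile scaling. Where 5 FPKM in 3 libraries was required, 7057 genes were tested, and 3851 (1906 higher, 1945 lower) were called between siRNA 2 and control and 3197 (1590 higher, 1607 lower) between the siRNAs. With a log2 fold change of at least 1 required, 1834 genes (758 higher, 1076 lower) remained against control. Leaving out each replicate in turn gave 5508 to 5659 calls against control (2697 to 2788 higher, 2811 to 2871 lower), 4109 to 4857 between the siRNAs (1932 to 2326 higher, 2177 to 2531 lower) and -3.02 to -2.95 for KMT2C. With the replicate block, 6070 genes (3006 higher, 3064 lower) were called against control, 4766 (2272 higher, 2494 lower) between the siRNAs, and KMT2C was at -2.98. Correlations of same-numbered control and siRNA 2 libraries, taken on deviations from the group mean, were -0.032, 0.039 and 0.024. Whether same-numbered libraries share a culture or batch is not given in the sources used here, and these values cannot settle it. DESeq2 called 6640 genes against control. Of called genes, 49.4% were higher in the main analysis and 59.4% with upper quartile scaling, 57.4% with totals free of mitochondrial genes and no TMM, and 55.6% with limma on log2(FPKM + 1). Of 484 called genes named here or taken by the naming rule, 463 kept call and direction under every alternative run against control. Of 146 list counts, 64 stayed within 1.5 times, the rest moving under at least 1 setting. HABP2 was not called between the siRNAs by limma on log2(FPKM + 1). Near 0 FPKM, few fragments limit the precision.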

Other observations

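Gene groups from the GO terms in the table, chosen after their values were seen, add other functions, and their counts are a description. Genes of the ciliary transition zone, the gate at the base of the primary cilium, had 15 called higher and 2 lower of 26 tested, with a median log2 fold change of 0.52 with siRNA 2 and 0.09 with siRNA 1, and 11 were higher than with siRNA 1 and 1 was lower. CC2D2A had 0.552, 0.737 and 0.592 FPKM in control libraries and 1.79, 1.68 and 1.95 with siRNA 2 (1.46 ± 0.13). B9D2 (1.25 ± 0.22), TTBK2 (1.21 ± 0.11), TMEM231 (1.16 ± 0.11) and NPHP4 (1.03 ± 0.11) rose as well. Intraciliary transport, which carries cargo along the cilium, gave 11 higher and 3 lower of 26, and assembly of non-motile cilia 16 higher and 4 lower of 37. BBS4, a member of a cargo adaptor of cilia, fell by 1.45. Whether the cells carry cilia is not measured here.

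Magnesium transporters had 0 called higher and 10 lower of 14 tested, with a median of -0.70. NIPAL1 (-2.17 ± 0.48), NIPAL2 (-1.78 ± 0.10) and NIPAL3 (-1.87 ± 0.08) were among those that fell. Cornification gave 4 higher and 19 lower of 28, laminin binding 1 higher and 8 lower of 14, and signaling mediated by interferon-gamma 5 higher and 21 lower of 35. Mitochondrial fusion had 8 higher and 0 lower of 13.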
